A study of Homo sapiens with 13 samples.

Results

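CDX1, CDX2 and CDX4 are the 3 human members of the caudal-type homeobox family, and they were followed here through a BMP time series and a BMP inhibitor dose response in human embryonic stem cells. They were picked by gene symbol, and each symbol matched 1 of the 61541 human genes in the count tables. The cells were RUES2 human embryonic stem cells, all carrying a GFP::SMAD4 fusion that reports BMP and Nodal signalling. In the time series, total RNA depleted of ribosomal RNA was sequenced from a pair of libraries at 0 h and from single libraries at 4, 12, 20, 28 and 42 h, 7 in all, under treatment with 100 ng/mL BMP4, 5 µM IWP2 and the ROCK inhibitor RI. IWP2 blocks Wnt secretion, so the BMP response was read with secreted Wnt held down. Since the labels list that treatment for 0 h too, the 0 h pair was taken to be cells harvested as it began. In the dose response, polyA RNA was sequenced at 5 h from 6 libraries. Of these, 5 had the same BMP4, IWP2 and RI and LDN-193189 (LDN) at 0, 10, 30, 100 or 300 nM. LDN blocks the BMP receptor kinases. The other library, 1 untreated, was kept in mTeSR medium without BMP4 and without IWP2. All libraries come from 1 modified cell line, and per the study's methods the sequencing was not repeated. Nothing in the labels says whether the 2 libraries at 0 h came from separate cultures, so tests that use their spread may measure technical variation only.

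CDX proteins are transcription factors related to caudal of Drosophila. In vertebrate embryos they set posterior identity, largely by activating Hox genes, and their genes respond to Wnt, FGF and BMP signals. CDX2 is also the factor that marks mouse trophectoderm and, later, the intestinal epithelium, while CDX4 is known mainly from the posterior embryo and the early blood lineage.

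All 3 genes have 3 exons in the GENCODE release 44 annotation of GRCh38. CDX1 (ENSG00000113722) lies on the plus strand at chr5:150166778-150184558. CDX2 (ENSG00000165556) lies on the minus strand at chr13:27960918-27969315, in the ParaHox cluster with PDX1 and GSX1. CDX4 (ENSG00000131264) lies on the plus strand at chrX:73447053-73455171. No other annotated gene overlaps any of them, so antisense or overlapping transcripts do not enter their counts through this annotation. The longest stretch of identical bases shared by the longest transcripts of a pair of these genes was 23 bases, between CDX1 and CDX2. It was 17 bases for CDX2 and CDX4 and 14 bases for CDX1 and CDX4.

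CDX2 and CDX4 were the members with counts above a handful at 5 h, where the inhibitor dose was varied. RefSeq's promoter table, matched by symbol, had no entry for CDX1, so only the promoters of CDX2 and CDX4 are shown. Both run 5′ to 3′ along the gene's own strand, and span 250 bases before to 50 bases after the start of transcription in GRCh38.p14, at chr13:27969266-27969565 (minus strand) for CDX2 and chrX:73446803-73447102 (plus strand) for CDX4. Capitals mark every exact run of at least 8 letters that the pair share on the same strand.
CDX2: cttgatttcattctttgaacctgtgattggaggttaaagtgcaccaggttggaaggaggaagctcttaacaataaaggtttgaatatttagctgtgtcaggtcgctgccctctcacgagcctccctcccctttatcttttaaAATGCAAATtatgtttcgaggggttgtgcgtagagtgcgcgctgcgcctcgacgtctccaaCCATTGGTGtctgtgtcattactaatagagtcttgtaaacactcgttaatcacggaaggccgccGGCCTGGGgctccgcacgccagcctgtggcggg
CDX4: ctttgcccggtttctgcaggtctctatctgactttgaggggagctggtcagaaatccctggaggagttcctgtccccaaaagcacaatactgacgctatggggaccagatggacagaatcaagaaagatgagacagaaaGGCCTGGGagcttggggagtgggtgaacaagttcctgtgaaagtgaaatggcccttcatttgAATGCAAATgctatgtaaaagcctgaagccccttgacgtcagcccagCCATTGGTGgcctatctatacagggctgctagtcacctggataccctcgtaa

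The 3 shared runs were AATGCAAAT, CCATTGGTG and GGCCTGGG. AATGCAAAT, which holds the octamer ATGCAAAT read by POU-domain factors, began 108 bases before the start of CDX2 and 49 bases before that of CDX4. CCATTGGTG, which holds an inverted CCAAT box, began 47 bases before the start of CDX2 and 2 bases before that of CDX4. GGCCTGGG lay on opposite sides of the start, 17 bases after that of CDX2 and 111 bases before that of CDX4. Between the first and the second run both promoters also held GACGTC, the core of a cyclic-AMP response element, 58 bases before the start of CDX2 and 15 bases before that of CDX4. The order octamer, GACGTC, inverted CCAAT was therefore the same in both.

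On either strand, AATGCAAAT was in 0.539%, CCATTGGTG in 0.331% and GGCCTGGG in 6.29% of the 35091 promoters of this length. The octamer alone was in 1.77%, GACGTC in 5.03% and CCAAT in 34.6% of them. The letters CTTTGA of a TCF/LEF site, the end point of Wnt signalling, occurred once in each of the pair and in 12.9% of all promoters. TTTATNG, the letters CDX proteins prefer, occurred once in CDX2 and was not in the CDX4 window, against 9.74% of all promoters. GGCGCC, a BMP-type SMAD sequence, was in neither window and in 19.2% of all promoters, and the palindrome GTCTAGAC was likewise in neither and in 0.202%. Both strands were searched, and the octamer and CCAAT overlap the runs above. These motifs were chosen after the sequences had been seen, and a match is only a description of the letters.

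Depth set what could be seen. Total counts on human genes ran from 37956244 to 71331540 in the time series and from 15600645, in the untreated library, to 33989489 in the dose response. Levels are given as CPM, the count of a gene scaled to a common library total. A floor of 3 counts was 0.0421 to 0.0790 CPM in the time series and 0.0883 to 0.192 CPM in the dose response. Intervals on single libraries are exact 95% Poisson intervals, and ratios of single libraries carry exact conditional 95% intervals. Both cover counting error only and not the variation between cultures. The pluripotency markers summed to 5212 CPM at 0 h, with 7 of 7 above 1 CPM. By 42 h they summed to 1902 CPM, and the 5 amnion markers had gone from 2.59 to 3598 CPM. The primitive streak and mesoderm markers TBXT, EOMES, MIXL1 and MESP1 summed to 1.62 to 4.41 CPM at all times, the neural pair PAX6 and SOX1 to 0.294 to 1.57 CPM and the endoderm pair SOX17 and FOXA2 to 0.243 to 3.12 CPM. Mitochondrial genes took 7.60% and 4.29% of the counts in the 0 h libraries and 2.01% to 4.23% at the later times. The part of these shifts in the CDX values was not tested.

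The time series asks when each gene responds to sustained BMP4. The main changes of the 3 CDX genes were staggered: CDX4 was present before treatment, was highest from 12 to 28 h and was low at 42 h, CDX2 appeared by 4 h and made its large step between 20 and 28 h, and CDX1 made its large step between 28 and 42 h. In bulk RNA a change in the number of cells that express a gene and a change in the RNA per cell cannot be told apart.

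**Figure D1:**
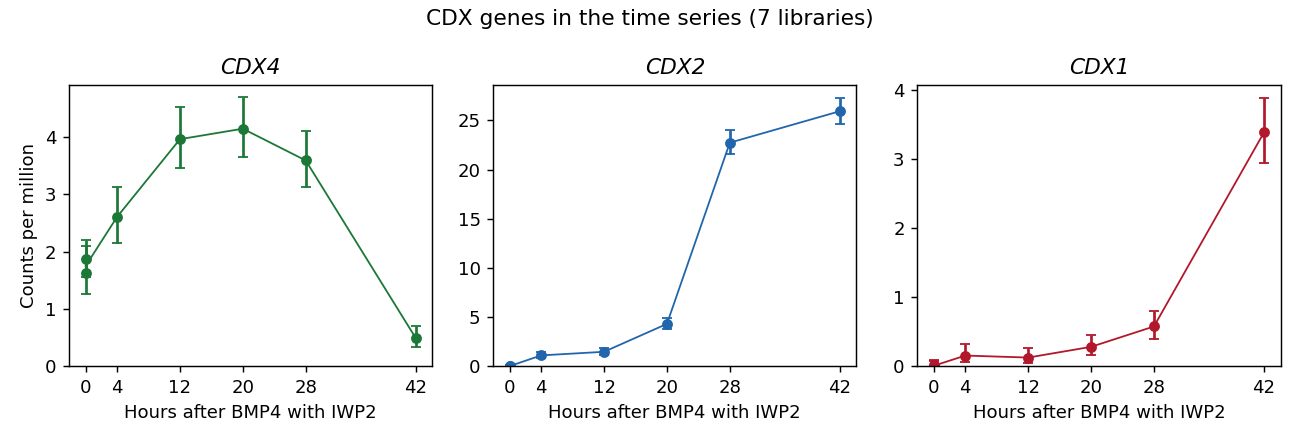
CPM (linear vertical axis, a separate scale for each gene) against hours of BMP4 with IWP2. Points are single libraries with exact 95% Poisson intervals and the line joins the mean at each time. CDX4 stood between 3.59 and 4.14 CPM from 12 to 28 h, whereas CDX2 and CDX1 were highest at 42 h, at 25.9 and 3.38 CPM.

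CDX4 was the only member with more than 1 count in a 0 h library. It had 62 counts (1.63 CPM) in 0 h replicate 1 and 133 counts (1.86 CPM) in 0 h replicate 2, or 1.75 ± 0.163 CPM (SD, n = 2). It then had 118 counts (2.60 CPM) at 4 h, 221 (3.96 CPM) at 12 h, 251 (4.14 CPM) at 20 h, 212 (3.59 CPM) at 28 h and 30 (0.490 CPM) at 42 h. Every library from 4 to 28 h was above both 0 h libraries, and the 42 h library was below both.

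Against the summed 0 h libraries, CDX4 was 1.46 times as high at 4 h (95% interval 1.15 to 1.84), 2.22 times at 12 h (1.82 to 2.704), 2.32 times at 20 h (1.92 to 2.81) and 2.01 times at 28 h (1.65 to 2.46). At 42 h it was 3.64 times lower than at 0 h (2.47 to 5.54). The 12, 20 and 28 h levels could not be ordered: the ratio of 20 h to 12 h was 1.05 (0.870 to 1.26) and that of 28 h to 20 h was 0.866 (0.718 to 1.04).

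CDX2 was at the limit of detection before treatment, with 1 count in 0 h replicate 1 (0.0263 CPM) and 0 counts in replicate 2. It had 50 counts (1.10 CPM) at 4 h, 82 (1.47 CPM) at 12 h, 261 (4.31 CPM) at 20 h, 1343 (22.7 CPM) at 28 h and 1587 (25.9 CPM) at 42 h. All later libraries stood above both 0 h libraries, and their order followed time.

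The steps of CDX2 were unequal. Against the single count at 0 h the 4 h level was 121 times as high, with an interval of 20.7 to 4856 that reflects that 1 count. From 4 to 12 h the ratio was 1.33 (0.926 to 1.93), a step within counting error. From 12 to 20 h it was 2.93 (2.28 to 3.81), from 20 to 28 h 5.28 (4.62 to 6.05), and from 28 to 42 h 1.14 (1.06 to 1.23).

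CDX1 was the lowest in counts. It had 0 counts in 0 h replicate 1 and 1 in replicate 2 (0.0140 CPM), then 7 (0.154 CPM) at 4 h, 7 (0.125 CPM) at 12 h, 17 (0.281 CPM) at 20 h, 34 (0.575 CPM) at 28 h and 207 (3.38 CPM) at 42 h. The 42 h library stood 5.88 times above the 28 h library (4.08 to 8.72), and the 28 h library 2.05 times above the 20 h library (1.11 to 3.91). The 4 and 12 h libraries could not be told apart, at a ratio of 0.812 (0.243 to 2.71).

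A straight line in hours was fitted to all genes with at least 15 counts over the 7 libraries (edgeR quasi-likelihood test on TMM-scaled counts, Benjamini-Hochberg adjustment over 27802 genes). 2 of the 3 CDX genes rose and none fell, beside 13.4% of all genes that rose and 11.8% that fell. CDX1 rose by 1.60 ± 0.160 on the log2 scale per 10 h (SE, 7 libraries, adjusted p = 0.00017 by edgeR). CDX2 rose by 2.02 ± 0.329 per 10 h (adjusted p = 0.00231 by edgeR). A gene as low at 0 h as these 2 reaches the minimum of 15 counts only through its later libraries, so the filter largely fixed these calls, and the share of all genes beside them is a description. For CDX4 the slope was -0.03 ± 0.246 per 10 h (adjusted p = 0.950 by edgeR). That value rests on the 42 h library, since without it CDX4 rose by 0.46 per 10 h (adjusted p = 0.0405 by edgeR). On library totals, without the TMM factors, 2475 genes rose and 4999 fell, in place of 3718 and 3281.

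A second fit took time as a factor, so that each time was set against 0 h without assuming a line. Its only residual degree of freedom is the pair at 0 h, and each single later library is assumed to vary as that pair did. CDX1 and CDX2 reach the minimum of 15 counts only through the later libraries, so the filter largely fixed their calls here too. The shares of all genes beside those calls are a description. At 4 h CDX2 rose (adjusted p = 8.34e-16 by edgeR, DESeq2 0.00027), 1 of the 3 genes beside 3.05% of all genes that rose and 0.647% that fell. CDX1 and CDX4 did not pass there (adjusted p = 0.0581 and 0.858 by edgeR). At 12 h CDX2 again passed alone, beside 4.89% of all genes that rose and 2.21% that fell, and CDX4 had a log2 difference of 1.10 ± 0.383 (adjusted p = 0.0547 by edgeR). At 20 h all 3 rose, beside 9.39% of all genes that rose and 4.87% that fell, CDX4 by 1.28 ± 0.381 (adjusted p = 0.00848 by edgeR). CDX1 lost this call with DESeq2 (adjusted p = 0.0530). At 28 h all 3 rose, beside 10.6% that rose and 5.48% that fell, CDX4 by 1.12 ± 0.383 (adjusted p = 0.0244 by edgeR). At 42 h CDX1 and CDX2 rose, beside 15.2% that rose, and CDX4 fell by 1.55 ± 0.465 (adjusted p = 0.00464 by edgeR), beside 14.5% that fell. With DESeq2 no difference of CDX4 from 0 h passed, with adjusted p from 0.112 at 42 h to 0.9999 at 4 h.

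From 28 to 42 h the members went different ways, in single libraries without a replicate check. CDX4 was 7.32 times lower at 42 h than at 28 h (4.98 to 11.1), CDX1 5.88 times higher and CDX2 1.14 times higher. Scaling matters most at 42 h, where the median of all genes against 0 h was -0.10 with TMM factors and -0.39 on library totals. Relative to that median, CDX4 at 42 h stood at -1.45 under either scaling.

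Dividing each profile by its own maximum shows the order directly. At 4 h CDX4 was at 62.8% of its maximum, CDX2 at 4.25% and CDX1 at 4.57%. At 28 h the values were 86.6%, 87.7% and 17.0%. At 42 h CDX4 was at 11.8%, below its 0 h share of 42.2%, while both others were at their maximum. As distances between these scaled profiles over the 6 times, CDX1 and CDX2 lay 0.712 apart, CDX2 and CDX4 1.67, and CDX1 and CDX4 1.86.

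**Figure D2:**
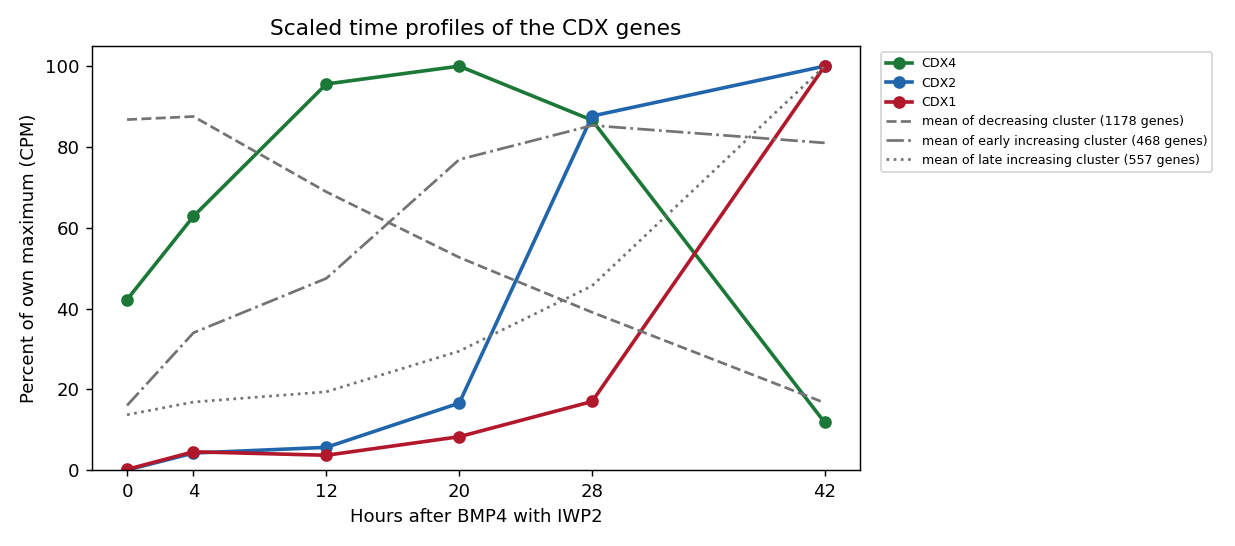
Percent of each gene's own maximum CPM against hours, for the CDX genes (solid lines) and for the mean of the genes in the 3 clusters of the screen (grey lines). At 28 h CDX4 and CDX2 were at 86.6% and 87.7% of their maxima while CDX1 was at 17.0%.

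The study screened for genes that change with BMP by a minimum mean of 2.5 CPM, a minimum cumulative fold change over time and 3 clusters of scaled profiles. The cumulative change was taken here as that from 0 to 42 h, and cluster sizes below are those of this rebuild. Rebuilt here on library totals with 0.01 CPM added, that screen kept 13651 genes for expression and clustered 2203, those whose change exceeded 1.55 on the log2 scale (1 SD over genes). CDX2, at a mean of 9.26 CPM and a change of 10.13, was placed in the late increasing cluster of 557 genes. It stood at 87.7% of its maximum at 28 h, where the mean of that cluster was 0.456 of the maximum. CDX1, with a mean of 0.754 CPM, did not reach the expression minimum and was not clustered.

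CDX4 sat near both limits of the screen, with a mean of 2.76 CPM and a change of -1.81, and fell in the decreasing cluster of 1178 genes. In that cluster 44.7% of genes had their highest value at 0 h and 42.4% at 4 h, while 8.40% had it at 12 h. The share was 4.16% for 20 h and 0.255% for 28 h. CDX4 had it at 20 h, within counting error of 12 and 28 h. With TMM-scaled CPM the change of CDX4 was -1.53 against a limit of 1.55, and it was not clustered.

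Levels of different genes can be compared only per length, for which the deposited FPKM (fragments per kilobase of transcript, scaled for depth) were used. At 0 h CDX4 was at 1.20 and 1.37 FPKM, CDX2 at 0.09 and 0.00, and CDX1 at 0.00 and 0.01. CDX4 was the highest of the 3 through 20 h, when it was at 3.01 FPKM, CDX2 at 1.96 and CDX1 at 0.19. At 28 h CDX2 was the highest, at 9.33 FPKM against 2.59 for CDX4 and 0.38 for CDX1. At 42 h the order was CDX2 at 11.8, CDX1 at 2.23 and CDX4 at 0.36 FPKM.

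Seen as a sum, the CDX family went from 1.34 FPKM at 0 h to 14.4 FPKM at 42 h. CDX4 made up 96.3% of that sum at 0 h, 58.3% at 20 h and 2.51% at 42 h, while CDX2 went from 3.37% to 38.0% and 82.0%. FPKM of CDX2 is less certain at low counts: 1 count gave 0.09 FPKM at 0 h, and in the dose response 6 counts gave 0.19 FPKM where 12 counts gave 0.12. CDX2 has 2 annotated transcripts and the other members 1 each. With 50 counts or more the CDX2 values followed the counts with an implied length of 2.20 to 2.76 kb.

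**Figure D3:**
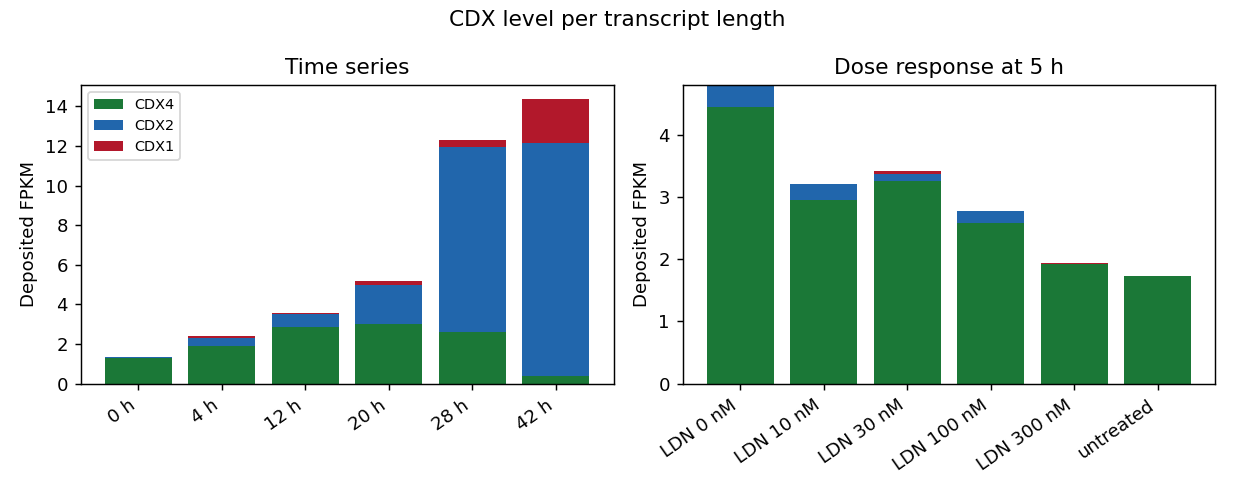
Deposited FPKM of the 3 genes stacked by time (left, 0 h as the mean of 2 libraries) and by condition at 5 h (right), on linear axes that start at 0 and differ between panels. The sum was 14.4 FPKM at 42 h, mostly CDX2, and 4.81 FPKM at 5 h without LDN, mostly CDX4.

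The dose response asks how the early level of each gene depends on the strength of BMP signalling. At 5 h CDX2 and CDX4 were both highest with BMP4 and IWP2 but no LDN. They fell as LDN was raised, CDX2 to no counts at 300 nM and CDX4 to about its level in untreated cells. CDX1 was near absent in all 6 libraries.

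CDX2 had 32 counts (1.11 CPM) without LDN, 22 (0.647 CPM) at 10 nM, 12 (0.369 CPM) at 30 nM, 6 (0.193 CPM) at 100 nM and 0 at 300 nM. The untreated library also had 0 counts. Each step of LDN gave a lower value than the one before. With the floor of 3 counts put in for 0, the library without LDN was 12.3-fold above that at 300 nM and 5.79-fold above the untreated one. The exact conditional intervals of these comparisons reach down to 9.44-fold and 4.44-fold. At 10 nM the ratio to no LDN was 0.581 with an interval of 0.322 to 1.03, at 30 nM 0.331 (0.155 to 0.661) and at 100 nM 0.173 (0.0592 to 0.420).

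CDX4 had 176 counts (6.12 CPM) without LDN, 139 (4.09 CPM) at 10 nM, 146 (4.49 CPM) at 30 nM, 111 (3.57 CPM) at 100 nM and 88 (2.65 CPM) at 300 nM. The untreated library had 37 counts (2.37 CPM). The 10 and 30 nM values broke the order, and their intervals (3.44 to 4.83 and 3.79 to 5.28 CPM) overlapped. CDX4 at 300 nM was 0.434 of its level without LDN (0.332 to 0.563), and 1.12 times the untreated level (0.754 to 1.69), a difference within counting error. Without LDN it was 2.58 times the untreated level (1.80 to 3.79), a comparison in which IWP2 differs as well as BMP4. The untreated library had the lowest total count and the highest share of mitochondrial counts of this experiment, 7.89% in a range that started at 4.22%; the part of this in the comparison was not tested.

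CDX1 had 2 counts (0.0615 CPM) at 30 nM, 1 count (0.0302 CPM) at 300 nM and 0 in the other 4 libraries, where up to 0.0883 to 0.192 CPM would not have been detectable. No effect of LDN on CDX1 could be read at this depth.

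**Figure D4:**
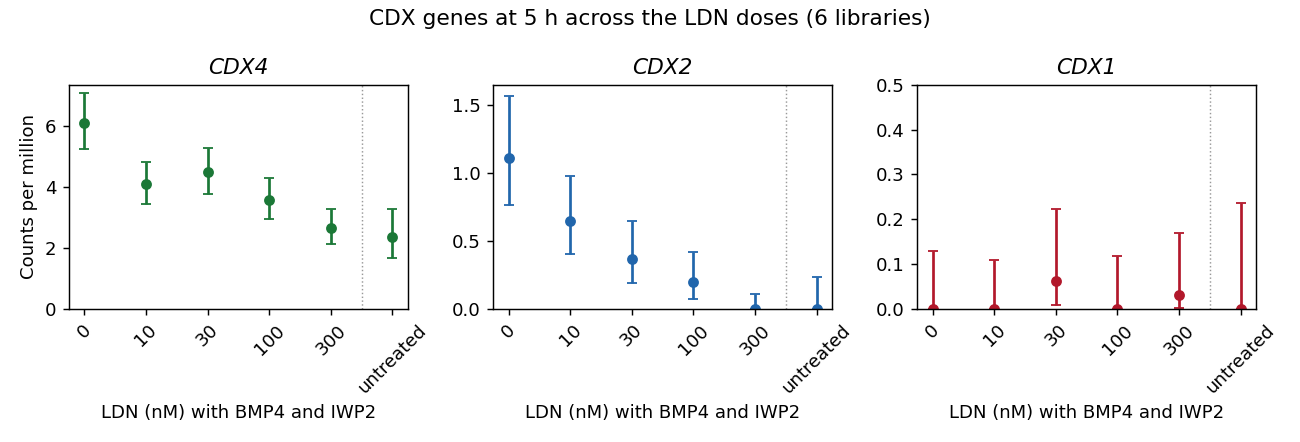
CPM at 5 h against LDN dose with BMP4 and IWP2, and in untreated cells to the right of the dotted line. Points are single libraries with exact 95% Poisson intervals, and vertical axes differ between genes. CDX2 went from 1.11 CPM without LDN to 0 at 300 nM and CDX4 from 6.12 to 2.65 CPM, with CDX1 at or near 0 throughout.

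A line across the 5 doses with BMP4, counted as steps from 0 to 4, was fitted to the 21099 genes with at least 15 counts. CDX2 and CDX4 were tested and both fell, beside 7.25% of all genes. CDX1 did not reach the minimum. CDX2 passed it mainly through the libraries at low LDN, where it is high, so the share beside its call is a description. CDX2 fell by 1.04 ± 0.194 on the log2 scale per dose step (SE, 5 libraries, adjusted p = 0.00336 by edgeR). CDX4 fell by 0.25 ± 0.0518 per step (adjusted p = 0.00608 by edgeR). The difference between these slopes was not tested. The call for CDX4 rests on both ends of the range: adjusted p was 0.133 without the 0 nM library and 0.0822 without the 300 nM library by edgeR. On log2 FPKM with limma neither passed (adjusted p = 0.121 for CDX2 and 0.0787 for CDX4).

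Side by side, the untreated 5 h library and the 0 h libraries gave CDX4 at 2.37 and 1.75 CPM, and 5 h without LDN and 4 h gave 6.12 and 2.60 CPM. CDX2 was at 1.11 CPM at 5 h without LDN and at 1.10 CPM at 4 h. The experiments used different RNA kits and library preparations and were scaled separately, so these levels are not compared.

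The genes whose scaled time profile lay nearest to each member were picked by Euclidean distance over the 6 times among 13651 genes whose mean reached 2.5 CPM. Nearest to CDX2 were ATP12A (distance 0.0739), a proton pump subunit, and the Notch ligand DLL1 (0.144), followed by the homeobox gene NKX2-5 (0.155), GPRC5A (0.157) and the iron exporter SLC40A1 (0.171). At 5 h NKX2-5 was at 0.348 CPM without LDN and at 0 at 300 nM, and ATP12A was at 1.43 and 1.45 CPM. Nearest to CDX1 were SVEP1 (0.0287), DOK4 (0.0335), CSGALNACT1 (0.0388), MYLK3 (0.0392) and GAS1 (0.0407), all of which made their main step between 28 and 42 h. DOK4, for example, was at 213 CPM at 28 h and 1269 CPM at 42 h.

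Among the genes nearest to CDX4 were a gene without a symbol, ENSG00000275496 (0.161), the non-coding RNA LINC00467 (0.175), TRANK1 (0.216) and SLITRK5 (0.228). These 4 had their highest value at 12 or 20 h and their lowest at 42 h, as CDX4 did. TRANK1 was at 12.8 CPM at 0 h, 29.7 CPM at 20 h and 4.77 CPM at 42 h. Across the doses LINC00467 was at 10.9 CPM without LDN and 5.13 CPM at 300 nM, and ENSG00000275496 at 3.17 and 12.9 CPM, the other direction. These distances describe likeness over 6 points only, and ranking by Pearson correlation of log2 values kept 0 of the 5 names for CDX1 and for CDX2 and 1 of 5 for CDX4.

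The best-known targets of CDX factors are the central HOX genes. Of 15 genes of HOX paralogue groups 5 to 9, 5 reached the minimum of 15 counts in the time series, all in the HOXB cluster. These 5 rose with hours (4 of 5 with DESeq2), beside 13.4% of all genes, with a median slope of 2.18 per 10 h against -0.02 over all genes tested; genes near 0 at the start reach the minimum only through the libraries where they are high, so this count stands as a description. The other 10, in the HOXA, HOXC and HOXD clusters, were at or below 0.114 CPM in all time-series libraries.

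HOXB9 was the first of them to appear, with 0.0140 CPM at 0 h (mean), 0.221 CPM at 4 h, 0.842 CPM at 20 h, 2.74 CPM at 28 h and 6.08 CPM at 42 h (slope 1.74 ± 0.178, adjusted p = 0.000191 by edgeR). HOXB6 was at 0 until 20 h, at 0.711 CPM at 28 h and at 36.3 CPM at 42 h (slope 4.53 ± 0.188, adjusted p = 2.76e-06 by edgeR). HOXB8 reached 0.801 CPM at 42 h (slope 2.18 ± 0.191, adjusted p = 8.32e-05 by edgeR). At 5 h HOXB9 was at 0.174 CPM without LDN, 0.177 CPM at 10 nM and 0 in the other 4 libraries, and none of the 15 reached the count minimum in the dose response. The HOXB cluster holds antisense transcripts and the strand setting of the counting is not given in the sources used here, so sense and antisense reads may be mixed.

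The other ParaHox genes stayed low. PDX1, the pancreatic and duodenal factor next to CDX2, had no counts at 0 and 4 h, 0.0358 CPM at 12 h, 0.116 CPM at 20 h, 0.457 CPM at 28 h and 0.310 CPM at 42 h, with a slope of 1.55 ± 0.324 per 10 h (adjusted p = 0.00798 by edgeR). It too reached the minimum of 15 counts only through its later libraries, so this slope is a description. GSX1 and GSX2, known from the brain, were at or below 0.0561 CPM in all 13 libraries and were not tested.

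Genes linked to CDX2 in the intestine made up a further list. Of 15 listed, 9 were tested against hours, and 1, the guanylate cyclase receptor GUCY2C, fell (slope -0.46 ± 0.147, adjusted p = 0.0459 by edgeR), from 1.13 CPM at 0 h to 0.147 CPM at 42 h, beside 11.8% of all genes that fell. By edgeR and by DESeq2 none rose, against 13.4% of all genes by edgeR; at an unadjusted p of 0.05 by edgeR 0 rose and 2 fell, and the median slope was -0.06 per 10 h. Of 8 tested across the doses none passed by edgeR or DESeq2, and 1 rose at an unadjusted p of 0.05 by edgeR. VIL1, the microvillus protein villin, was at 12.4 CPM at 0 h and 12.3 CPM at 42 h, whereas sucrase-isomaltase (SI) had no counts in any library.

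Caudal progenitor and posterior Wnt/FGF genes, which sit with CDX factors in the tail bud, were also listed. With hours 1 of 14 tested rose and 2 fell, shares near the 13.4% and 11.8% of all genes. A straight line can miss a pulse, so these counts do not show that the other genes held steady. WNT3, for example, was at 1.58 CPM at 0 h, 15.5 CPM at 12 h and 4.80 CPM at 42 h. The mesoderm factor TBX6 rose (0.64 ± 0.0867 per 10 h, adjusted p = 0.000847 by edgeR), FGF8 fell (-3.02 ± 0.441, adjusted p = 0.00131 by edgeR) and the Wnt target AXIN2 fell (-0.62 ± 0.169, adjusted p = 0.0267 by edgeR). TBXT, which marks the streak, was at 0.0179 to 0.203 CPM after 0 h. The Wnt effectors LEF1 and SP5 did not pass in either fit of a slope. In the fit with time as a factor SP5 rose at 12, 20 and 28 h (at 20 h by 4.32 ± 0.729 on the log2 scale, adjusted p = 9.94e-08 by edgeR) and LEF1 at 20 and 28 h (at 28 h by 1.75 ± 0.346, adjusted p = 7.79e-06 by edgeR). SP5 had its highest level at 20 h, at 0.924 CPM.

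Across the LDN doses 5 of 12 of these genes fell and 3 rose, against 7.25% and 7.33% of all genes. Genes near 0 at some doses, such as EVX1 at 100 and 300 nM, pass the count minimum only through the libraries where they are high. These counts therefore stand as a description. The homeobox gene NKX1-2 fell by 0.61 ± 0.0320 per step (adjusted p = 2.10e-07 by edgeR), with 225 CPM when LDN was left out, 38.4 CPM at 300 nM and 38.5 CPM untreated. Like CDX4, it had a pulse in time, with 43.2 CPM at 0 h, 483 CPM at 20 h and 63.2 CPM at 42 h. WNT3 fell by 0.46 ± 0.0483 per step (adjusted p = 4.54e-05 by edgeR), from 17.6 to 4.04 CPM. AXIN2 rose by 0.36 ± 0.0196 per step (adjusted p = 2.63e-07 by edgeR), from 15.3 to 40.0 CPM.

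**Figure D5:**
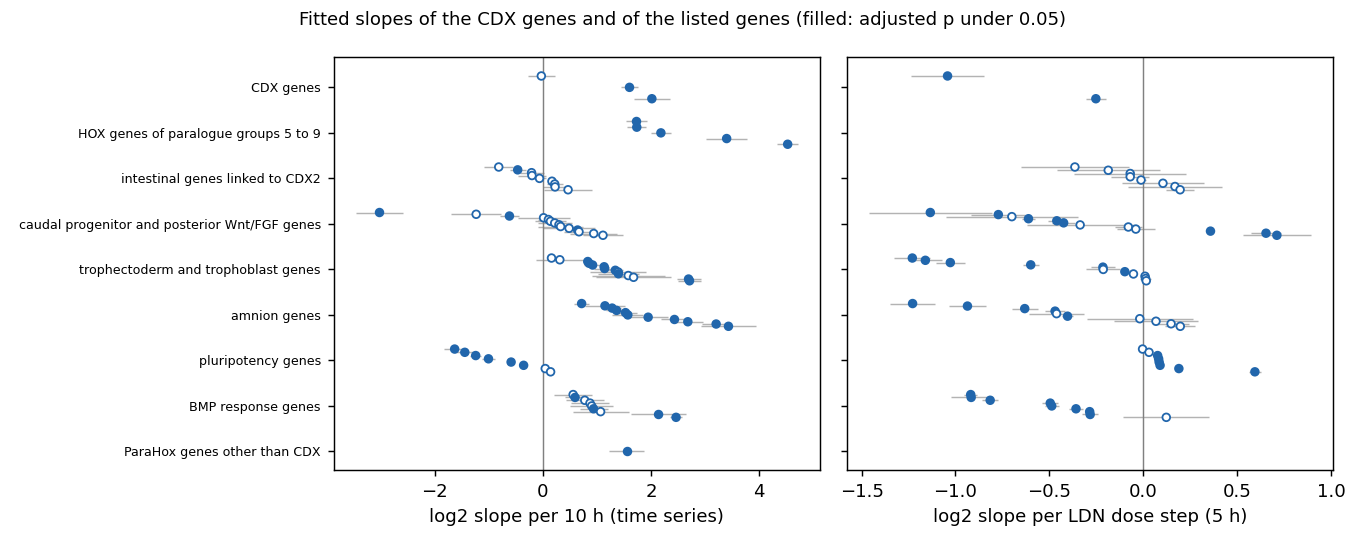
Fitted log2 slopes per 10 h (left) and per LDN dose step at 5 h (right) with SE bars, for the CDX genes and for each list of genes that was tested. Filled points passed an adjusted p of 0.05 by edgeR. All 5 tested HOX genes lie to the right of 0 on the left, and both tested CDX genes lie to the left of 0 on the right.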

How the data were processed

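Bulk RNA-seq of 13 libraries was analysed. Per the study's methods and the submitters' processing notes, adapters were removed with Cutadapt, STAR 2.7.8a aligned the reads to GRCh38, and RSEM 1.3.3 quantified the genes; the annotation release is not given in the sources used here. The authors deposited RSEM expected counts per gene, whole numbers not scaled for depth, and FPKM, which they scaled for gene length and depth. CPM was computed from the counts on human genes; 5 transgene features were left out. Main tests were edgeR 4.0.16 quasi-likelihood fits with TMM factors on genes with a total of at least 15 counts, against hours, against LDN dose step, and with time as a factor. DESeq2 1.42.0, limma 3.58.1 (log2 of FPKM + 0.1), other scalings, filters and left-out libraries were alternatives. The fits were tested on simulated data. The 2 libraries at 0 h differed far beyond sampling noise (chi-square per degree of freedom 120 over 21130 genes). R 4.3.3, Python 3.11.15, pandas 2.3.3 and scipy 1.17.1 were used. BMP4 with IWP2 was not tested against the untreated library at 5 h, since each is a single library.

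The CDX genes and the 8 gene lists were chosen with earlier results of these data known. The genes named are the CDX genes, the 5 nearest to each in time profile, a fixed set of markers and, per list and fit, the 3 called genes with the smallest adjusted p; 1 of the genes nearest to CDX4 is not reported here. VIL1, SI, HOXB9 at 5 h and the count of HOXA, HOXC and HOXD genes were picked after their values had been seen.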

Additional observations from a re-analysis of the deposited data

How the results depend on the processing

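No paired analysis was possible because only 0 h has more than 1 library, so no 2 groups share replicate numbers. Of 108 tests of the CDX genes under alternatives, 93 kept their direction and their side of the threshold, 9 lost and 4 gained the call, and 2 changed direction. The cause was not tested. The slope of CDX4 with hours turned to 0.063 per time point with time order as the covariate, and ranged from -0.20 to 0.46 with 1 library left out, the highest without 42 h. Left-out libraries gave 1.44 to 1.84 per 10 h for CDX1, 1.77 to 2.49 for CDX2, and per dose step -1.28 to -0.81 for CDX2 and -0.28 to -0.21 for CDX4. With limma on FPKM the dose slopes were -0.47 for CDX2 and -0.25 for CDX4, neither called. With DESeq2 the calls were lost for CDX1 at 20 h (4.94) and for CDX4 at 20 h (1.26), 28 h (1.10) and 42 h (-1.50). On library totals CDX1 at 4 h (3.79) and CDX4 at 12 h (1.17) gained a call and CDX4 at 28 h (1.03) lost it; with filterByExpr CDX1 (3.42) and CDX4 (1.10) at 12 h gained one. With 1 of the 0 h libraries left out, CDX4 against 0 h was 0.28 to 0.54 at 4 h, 0.99 to 1.25 at 12 h, 1.16 to 1.42 at 20 h, 1.01 to 1.27 at 28 h and -1.67 to -1.40 at 42 h; for CDX1 and CDX2 no value is given, since the library that remains has 0 or 1 count. The change from 0 to 42 h was 2.12, 4.73 and -0.88 for CDX1, CDX2 and CDX4 with 1 CPM added, 7.74 for CDX2 on FPKM and -1.53 for CDX4 on TMM-scaled CPM, with left-out ranges of 7.14 to 8.41, 9.48 to 11.34 and -1.91 to -1.72. Of the 5 nearest genes, Pearson correlation kept 0, 0 and 1, and a minimum of 1 CPM kept 3 for CDX2. Over all genes, 2382 rose with hours by limma on FPKM, and 2362 rose and 1595 fell without 42 h. With dose, 1547 rose and 1530 fell, 244 and 498 by limma on FPKM, 1027 rose with the untreated library as a sixth step, and left-out libraries gave 792 to 1390 and 990 to 1451. Depth limits CDX1 and CDX2 before 4 h and CDX1 at 5 h.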

Other observations

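CDX2 is also known from trophectoderm, the outer layer of the early embryo. The list of trophectoderm and trophoblast genes overlaps with amnion. It holds GATA3 and TFAP2C, which the study uses as markers of amnion-like cells, and TFAP2A, which was among the amnion markers summed above. Counts from this list therefore do not tell trophoblast from amnion. Of 15 trophectoderm and trophoblast genes 14 were tested against hours, and 9 rose and none fell by edgeR (12 rose and none fell by DESeq2), beside 13.4% of all genes that rose, with a median slope of 1.24 per 10 h against -0.02 over all genes. At an unadjusted p of 0.05 13 rose and 0 fell. Genes near 0 at the start, such as VGLL1, pass the count minimum only through later libraries. KRT8, a keratin gene with processed copies that can share its reads, rose by 1.13 ± 0.0807 per 10 h (adjusted p = 3.36e-05 by edgeR), VGLL1, a TEAD partner, by 2.71 ± 0.213 (adjusted p = 5.24e-05 by edgeR) and TEAD3 by 0.83 ± 0.0654 (adjusted p = 5.37e-05 by edgeR). KRT7 went from 12.1 CPM at 0 h to 503 CPM at 42 h and TP63 from 0.115 to 70.3 CPM. ELF5, a factor of trophoblast stem cells, was at or below 0.0508 CPM in all time-series libraries, and EOMES was highest at 20 h, at 3.52 CPM. GATA3, whose slope with hours did not pass, was at 0.177 CPM at 0 h, 45.6 CPM at 4 h and 322 CPM at 42 h. All 11 amnion genes rose (10 of 11 on library totals), beside 13.4% of all genes, with a median of 1.57 per 10 h. Those near 0 at the start, such as WNT6 and HAND1, pass the count minimum only through later libraries, so this count is a description. WNT6 rose by 3.21 ± 0.256 (adjusted p = 5.79e-05 by edgeR), ISL1 by 2.43 ± 0.244 (adjusted p = 0.000173 by edgeR) and TBX3 by 2.68 ± 0.281 (adjusted p = 0.000213 by edgeR). HAND1 went from 0.0334 CPM at 0 h to 2919 CPM at 42 h.

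Of 8 pluripotency genes 6 fell with hours, beside 11.8% of all genes, TDGF1 by 1.24 ± 0.102 per 10 h (adjusted p = 6.54e-05 by edgeR), DPPA4 by 0.59 ± 0.0489 (adjusted p = 6.93e-05 by edgeR) and SOX2 by 1.005 ± 0.118 (adjusted p = 0.000394 by edgeR). NANOG went from 131 to 1.08 CPM. POU5F1, which has processed copies that can share its reads, was at 1003 and 1721 CPM in the 0 h libraries. Its 42 h value of 1145 CPM lay between them. Of 9 BMP response genes 4 rose with hours (2 on library totals and 5 with DESeq2), beside 13.4% of all genes, led by MSX1 at 2.46 ± 0.108 per 10 h (adjusted p = 3.05e-06 by edgeR). MSX2 rose by 2.14 ± 0.508 (adjusted p = 0.0142 by edgeR) and ID2 by 0.94 ± 0.259 (adjusted p = 0.0272 by edgeR). A straight line can miss an early rise that levels off, so the count of 4 does not show that the others held steady. In the fit with time as a factor all 9 were above 0 h at 12 h. The log2 differences ran from 1.87 for MSX1 to 7.65 for MSX2.

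At 5 h, 8 of these 9 BMP response genes fell with LDN dose beside 7.25% of all genes, led by the inhibitory SMADs SMAD6 (0.92 ± 0.0355 per step, adjusted p = 3.62e-08 by edgeR) and SMAD7 (0.29 ± 0.0187, adjusted p = 1.15e-06 by edgeR) and by SMAD9 (0.82 ± 0.0427, adjusted p = 2.10e-07 by edgeR). ID1, a direct BMP target, was at 1055 CPM without LDN, 376 CPM at 300 nM and 65.6 CPM untreated. Of the trophectoderm genes 6 of 11 tested fell and of the amnion genes 5 of 10, beside the same 7.25% of all genes. Genes near 0 at 300 nM, such as HAND1 at 0.0603 CPM, pass the count minimum only through the libraries at lower LDN. These 2 counts therefore stand as a description. Among the former were GATA3 by 1.16 ± 0.0902 (adjusted p = 4.32e-06 by edgeR), GATA2 by 1.03 ± 0.0780 (adjusted p = 3.56e-06 by edgeR) and TFAP2C by 0.60 ± 0.0437 (adjusted p = 2.57e-06 by edgeR). Among the latter were HAND1 by 1.23 ± 0.118 (adjusted p = 2.25e-05 by edgeR), TBX3 by 0.94 ± 0.0970 (adjusted p = 4.16e-05 by edgeR) and BMP4 itself by 0.40 ± 0.0302 (adjusted p = 3.19e-06 by edgeR). Of the pluripotency genes 6 of 8 rose, beside 7.33% of all genes that rose. Among them were PRDM14 by 0.59 ± 0.0329 per step (adjusted p = 2.80e-07 by edgeR), DNMT3B by 0.19 ± 0.0154 (adjusted p = 5.84e-06 by edgeR) and DPPA4 by 0.08 ± 0.00911 (adjusted p = 5.71e-05 by edgeR).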
